A study of Homo sapiens with 18 samples.

Results

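DUSP1, SPRY4, ETV1 and ETV5 are feedback and output genes of mitogen-activated protein kinase (MAPK) signalling, measured here in breast cancer cells of 3 labelled lines given an antisense oligonucleotide (ASO) against a long non-coding RNA. They were found by gene symbol in the platform annotation, with 1 feature (an array's probe set for one transcript cluster) for each, so they are 4 of 53617 features and 4 of the 16098 that carry a symbol. All 4 were among the 29855 features tested. As a group they were chosen by their measured log2 differences between anti-lncRNA and control ASO in these same arrays. Those differences are therefore given below as description, with no test.

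The study ran 18 Affymetrix Human Gene 2.0 ST arrays, 3 in each of 6 groups, to ask how loss of either long non-coding RNA changes gene expression. Cells labelled SKBR3, a line with amplified HER2, received the anti-LINC01269 ASO or the control ASO. Cells labelled MDA-MB-231 and cells labelled MDA-MB-468, both triple-negative lines, received the anti-AL078604.2 ASO or the control ASO. All ASOs were GapmeRs, which direct RNase H to cut the paired RNA, given at 15 nM for 48 h with the TransIT-BrCa reagent. One anti-lncRNA ASO was used for each target, and the labels do not say whether the 3 replicates of a group were separate cultures. Neither target has a named feature, so the knockdown was not analysed here.

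When growth factor receptors activate RAS, the kinases RAF, MEK and ERK are switched on in turn, and ERK then turns on genes that damp the same pathway. DUSP1 encodes a nuclear phosphatase that removes the activating phosphates from p38, JNK and ERK. SPRY4 encodes a Sprouty protein that restrains signalling between the receptor and ERK, and ETV1 and ETV5 encode PEA3-type ETS transcription factors whose genes ERK releases from the repressor Capicua.

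Promoter windows show which short response elements stand upstream of these genes. RefSeq windows of the GRCh38.p14 assembly, running from 250 bases before to 50 after an annotated start, matched 3 of the 4 genes (DUSP1, SPRY4 and ETV1). All 3 lie on the minus strand: DUSP1 at chr5:172771146-172771445, SPRY4 at chr5:142324198-142324497 and ETV1, for the most upstream of its 6 windows, at chr7:13991376-13991675. The SPRY4 window lies wholly inside the gene's span (chr5:142310430-142325021), so its start is not the outer end of that span. They are printed 5′ to 3′ on the strand of the gene, with capitals marking the cyclic AMP response element TGACGTCA and its shorter form TGACG, the ETS core CCGGAA, the Capicua octamer TGAATGGA and the TATA box TATAAA, on either strand.
DUSP1: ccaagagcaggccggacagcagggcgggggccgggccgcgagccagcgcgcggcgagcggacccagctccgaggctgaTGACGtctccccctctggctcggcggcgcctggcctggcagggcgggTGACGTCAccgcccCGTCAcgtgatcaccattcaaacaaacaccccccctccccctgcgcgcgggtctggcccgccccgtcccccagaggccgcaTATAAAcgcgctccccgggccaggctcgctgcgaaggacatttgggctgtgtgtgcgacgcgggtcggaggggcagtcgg
SPRY4: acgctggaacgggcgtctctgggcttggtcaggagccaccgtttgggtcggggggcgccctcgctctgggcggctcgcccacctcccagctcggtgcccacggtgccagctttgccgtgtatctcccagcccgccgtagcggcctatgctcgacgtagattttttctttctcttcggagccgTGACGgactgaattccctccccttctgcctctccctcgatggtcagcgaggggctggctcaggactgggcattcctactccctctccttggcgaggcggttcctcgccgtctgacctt
ETV1: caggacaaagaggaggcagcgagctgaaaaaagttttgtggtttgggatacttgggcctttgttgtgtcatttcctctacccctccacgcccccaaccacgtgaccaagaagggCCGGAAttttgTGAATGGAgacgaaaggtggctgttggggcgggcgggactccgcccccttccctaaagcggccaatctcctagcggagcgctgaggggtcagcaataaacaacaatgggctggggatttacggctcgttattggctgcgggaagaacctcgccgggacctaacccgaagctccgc

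The DUSP1 window held the full cyclic AMP response element at position -125 from the start, which 1.85% of the 35093 windows in the table hold. It held TGACG at 4 places, some of them inside or beside the full element, and TATAAA at -30. The SPRY4 window held TGACG once, at -68. Shares over all windows were 24.55% for TGACG and 11.54% for TATAAA. The ETV1 window held CCGGAA at -136 (17.25% of windows) and the octamer TGAATGGA at -125, and 3.76% of windows hold any of the Capicua octamers TGAATGAA, TGAATGGA, TCAATGAA and TCAATGGA. GGGCGG, the GC box, was present in all 3 windows and in 44.95% of all windows. None of the 3 held the CArG box bound by serum response factor (1.29% of windows), the second ETS core searched, AGGAAG (33.66%), or the AP-1 site TGANTCA (7.71%). A match to these letters is a description of the window and not a site shown to be used.

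**Figure D1:**
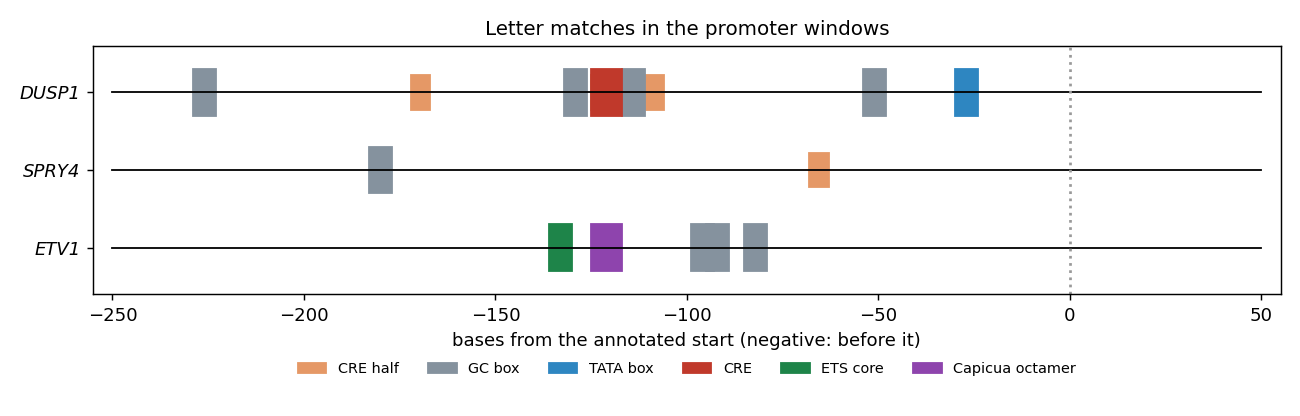
Positions of the motif matches in the promoter windows of DUSP1, SPRY4 and ETV1, in bases from the annotated start of each window (CRE is the cyclic AMP response element, and its shorter form is drawn smaller). DUSP1 carries the full cyclic AMP response element at -125 and a TATA box at -30. The ETV1 window drawn, the most upstream of 6, carries an ETS core at -136 with a Capicua octamer at -125.

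The arrays were alike in depth of signal within a line and less so between lines. Array medians on the deposited scale were 4.56 to 4.63 for SKBR3, 5.41 to 5.43 for MDA-MB-231 and 5.21 to 5.24 for MDA-MB-468, so levels were compared between lines only after quantile normalization. Replicate arrays of a group correlated at 0.985 to 0.992 over all features. Line markers went partly against the labels. EPCAM stood at the 98.9 to 99.3 percentile of all features in the controls of all 3 lines, although MDA-MB-231 is usually low in it. The mesenchymal gene VIM stood at 76.1 in SKBR3, 76.6 in MDA-MB-231 and 82.1 in MDA-MB-468. ERBB2 and CDH1 have no named feature. GRB7, a gene of the HER2 amplicon, stood no higher in SKBR3 (79.1) than in MDA-MB-231 (81.3), with 78.8 in MDA-MB-468. EGFR, taken as amplified in MDA-MB-468, stood at 98.2 to 99.0 in all 3 lines. Other markers went with the labels only in part. The mesenchymal gene AXL was highest in MDA-MB-231 (83.2) but nearly as high in SKBR3 (80.7), with 60.1 in MDA-MB-468. The basal gene KRT5 was highest in MDA-MB-468 (85.8, against 69.6 in SKBR3 and 73.4 in MDA-MB-231). KRT14, also basal, was highest in MDA-MB-231 instead (89.15, against 71.9 in SKBR3 and 79.3 in MDA-MB-468). Groups are accordingly called by their labels, and the part of this mismatch in the results was not tested.

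DUSP1 had the largest difference of the 4 genes. The DUSP1 gene spans chr5:172768096-172771195. In arrays labelled MDA-MB-231 it read 8.62, 8.97 and 9.39 log2 in anti-AL078604.2 replicates 1, 2 and 3, against 7.87, 7.84 and 7.82 in control replicates 1, 2 and 3. Every anti-AL078604.2 array stood above every control array, as for 9.28% of tested features, and the controls lay within a narrow band. The mean was 8.99 ± 0.387 with the anti-AL078604.2 ASO and 7.84 ± 0.025 with the control ASO (SD, n = 3 each), a difference of 1.15 ± 0.183 log2 (SE), or 2.22-fold. That difference ranked 27 among the 29855 features and 5 among the 12003 named ones. In this comparison 0.171% of features passed limma's test, which was not read for DUSP1. Arrays measure bulk RNA, so more cells with the transcript and more transcript per cell cannot be told apart.

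In the other lines the DUSP1 values were closer together. In arrays labelled MDA-MB-468 it read 8.16, 7.75 and 7.50 with the anti-AL078604.2 ASO, against 7.11, 7.32 and 7.14 with the control ASO. The groups again did not overlap, as for 8.41% of tested features in that direction. The difference was 0.62 ± 0.183 (SE, n = 3 per group), or 1.53-fold, rank 172 of all features. In this comparison 0.0067% of features passed limma's test, which was not read for DUSP1. In arrays labelled SKBR3 it read 7.69, 7.14 and 7.58 with the anti-LINC01269 ASO, against 7.28, 7.02 and 7.22 with the control ASO. Here the groups overlapped, since anti-LINC01269 replicate 2 lay below control replicates 1 and 3, and the difference was 0.30 ± 0.183, or 0.19 without replicate 1 and 0.46 without replicate 2 of the anti-LINC01269 arrays. In the SKBR3 comparison 0% of features passed limma's test, and 2736 had an unadjusted p under 0.05. The anti-AL078604.2 difference of DUSP1 was larger in MDA-MB-231 than in MDA-MB-468 by 0.54 ± 0.259.

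SPRY4, at chr5:142310430-142325021, was higher on average with the anti-lncRNA ASO in all 3 lines, with similar sizes in both triple-negative lines. In MDA-MB-231 arrays it read 6.87, 7.11 and 7.31 with the anti-AL078604.2 ASO, against 6.52, 6.65 and 6.45 with the control ASO. The groups did not overlap (as for 9.28% of tested features in that direction), and the difference was 0.56 ± 0.166 (SE, n = 3 per group), or 1.47-fold. In MDA-MB-468 arrays it read 6.36, 5.98 and 5.66 with the anti-AL078604.2 ASO, against 5.68, 5.39 and 5.38 with the control ASO. There anti-AL078604.2 replicate 3 lay just under control replicate 1 (a gap of -0.0216), and the difference was 0.52 ± 0.166. In SKBR3 arrays it read 6.53, 6.07 and 6.12 with the anti-LINC01269 ASO, against 5.90, 6.04 and 5.82 with the control ASO. The groups did not overlap there (as for 7.28% of tested features in that direction), with a gap of 0.0245 and a difference of 0.32 ± 0.166. That difference was 0.17 without anti-LINC01269 replicate 1 and 0.41 without replicate 2, and the MDA-MB-468 difference was 0.34 without anti-AL078604.2 replicate 1 and 0.69 without replicate 3.

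ETV1, at chr7:13891229-13991425, had its largest difference in arrays labelled MDA-MB-468. In MDA-MB-468 it read 7.38, 7.33 and 7.14 with the anti-AL078604.2 ASO, against 6.77, 6.68 and 6.69 with the control ASO. Those groups did not overlap, as for 8.41% of tested features in that direction. The mean was 7.28 ± 0.128 with the anti-AL078604.2 ASO and 6.71 ± 0.0516 with the control ASO (SD, n = 3 each). The difference was 0.57 ± 0.121 (SE), or 1.48-fold, rank 234 of 29855. In MDA-MB-231 ETV1 read 6.86, 7.27 and 7.43 with the anti-AL078604.2 ASO, against 7.21, 7.01 and 7.11 with the control ASO. Anti-AL078604.2 replicate 1 was the lowest of these 6 arrays and replicate 3 the highest, and the difference was 0.08 ± 0.121, or 0.25 without replicate 1 and -0.04 without replicate 3 of the anti-AL078604.2 arrays. In SKBR3 it read 5.99, 5.93 and 5.94 with the anti-LINC01269 ASO, against 5.99, 5.80 and 6.08 with the control ASO, with overlapping groups and a difference of -0.0039 ± 0.121. The anti-AL078604.2 difference of ETV1, MDA-MB-231 minus MDA-MB-468, was -0.49 ± 0.171, opposite in sign to that of DUSP1.

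ETV5, the second PEA3-type gene named, at chr3:186046314-186109089, had its largest difference in arrays labelled SKBR3. It read 5.60, 5.13 and 5.23 there with the anti-LINC01269 ASO, against 4.51, 5.05 and 5.00 with the control ASO. The groups did not overlap (as for 7.28% of tested features in that direction), although control replicate 1 lay well below the other controls. The difference was 0.47 ± 0.171 (SE, n = 3 per group), or 1.38-fold, rank 608 of 29855, and it ran from 0.30 without control replicate 1 to 0.56 without control replicate 2. In MDA-MB-231 ETV5 read 5.55, 5.87 and 6.13 with the anti-AL078604.2 ASO, against 5.68, 5.78 and 5.84 with the control ASO, a difference of 0.09 ± 0.171 (0.24 without anti-AL078604.2 replicate 1 and -0.05 without replicate 3). In MDA-MB-468 it read 5.92, 5.49 and 5.80 with the anti-AL078604.2 ASO, against 5.61, 5.55 and 5.49 with the control ASO, a difference of 0.19 ± 0.171 (0.09 without anti-AL078604.2 replicate 1 and 0.31 without replicate 2). Groups overlapped in both triple-negative lines.

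**Figure D2:**
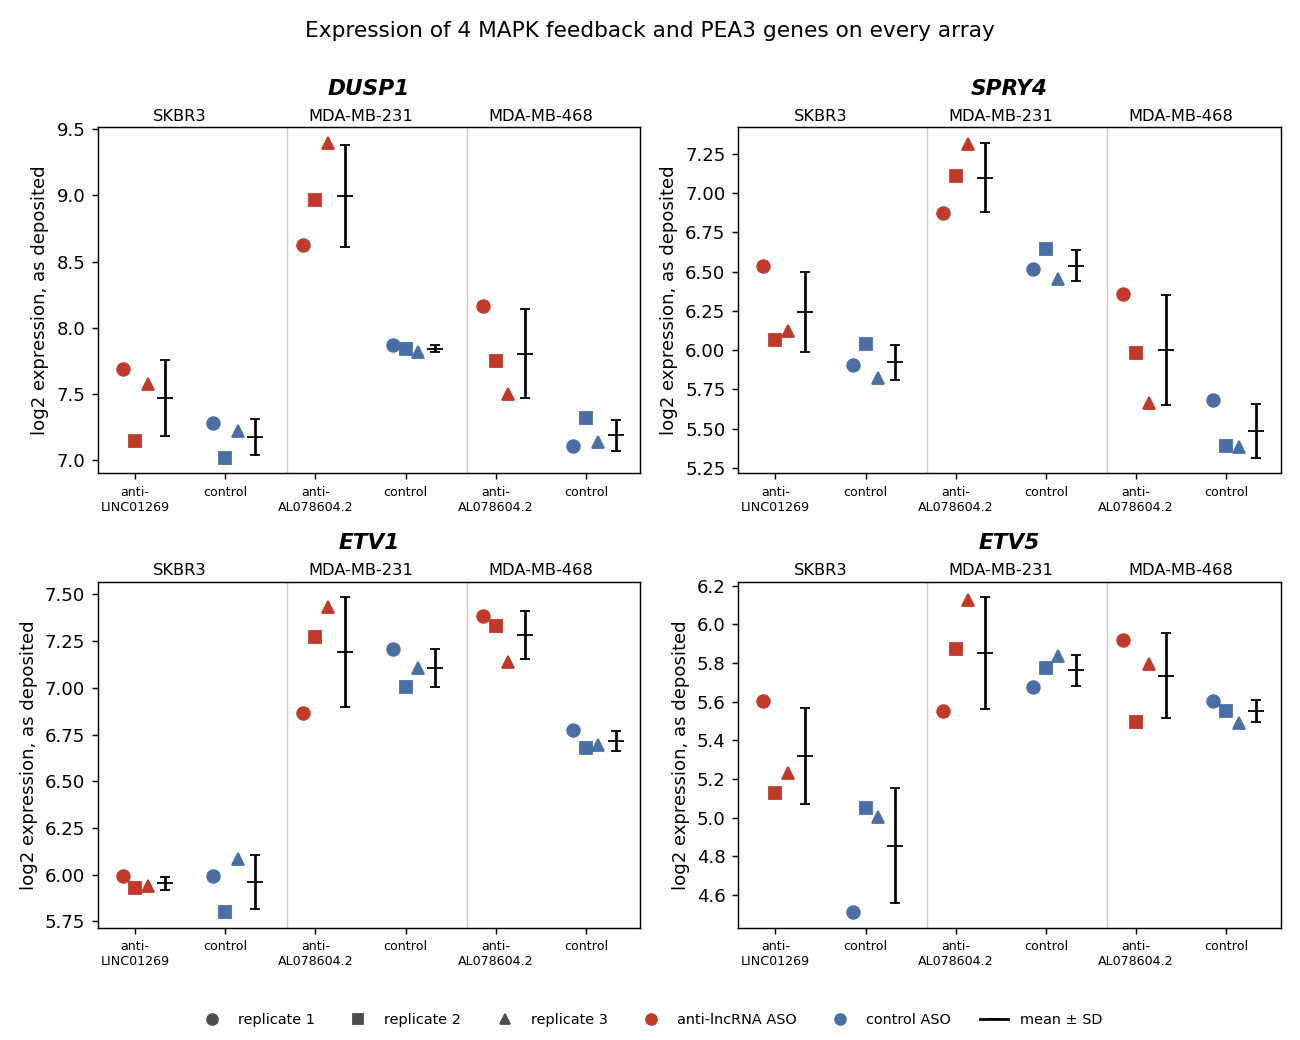
Deposited log2 expression of DUSP1, SPRY4, ETV1 and ETV5 in each of the 18 arrays, with the anti-lncRNA ASO arrays left of the control ASO arrays of the same line and the mean ± SD of each group beside its points. In MDA-MB-231 all 3 anti-AL078604.2 arrays of DUSP1 lie above 8.6, against controls at or below 7.87.

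Across the 4 genes and 3 lines, each line had 2 genes whose anti-lncRNA arrays all stood above the control arrays, and the pair differed by line. They were SPRY4 and ETV5 in SKBR3, where 7.28% of all features were separated in that direction, DUSP1 and SPRY4 in MDA-MB-231 (9.28%), and DUSP1 and ETV1 in MDA-MB-468 (8.41%). None of the 4 was separated in all 3 lines, as 0.194% of features were. DUSP1, SPRY4 and ETV5 had a difference above 0 in every line, which 17.8% of features had. The median difference over all tested features was 0.0142 in SKBR3, 0.0104 in MDA-MB-231 and -0.0035 in MDA-MB-468. MDA-MB-231 and MDA-MB-468 share the anti-AL078604.2 ASO but no arrays, and the SKBR3 comparison shares neither. These counts come from the contrast that chose the genes, and nothing is read from them.

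**Figure D3:**
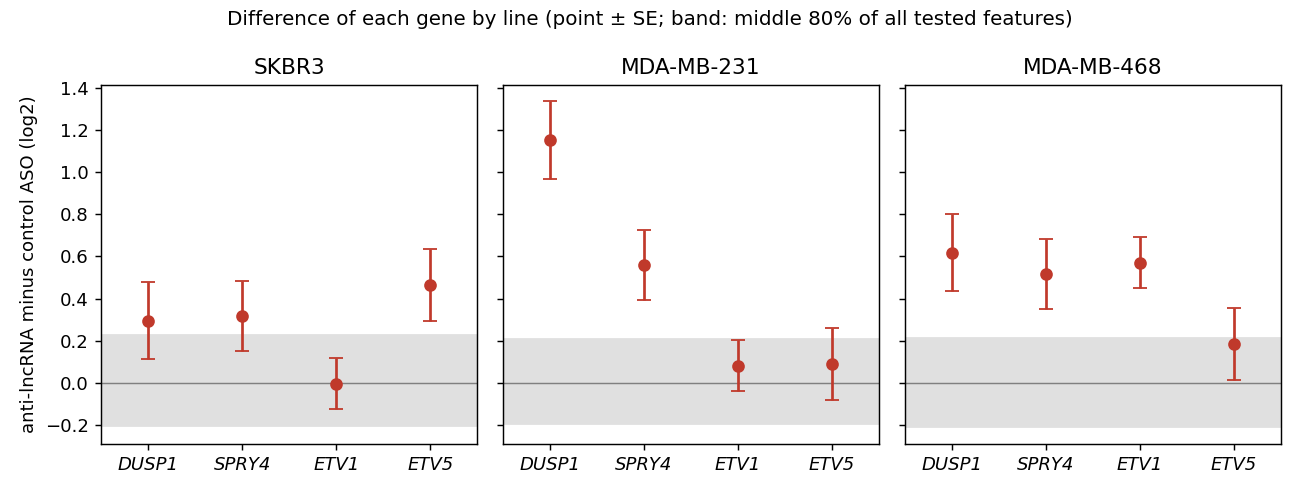
Difference in log2 expression, anti-lncRNA ASO minus control ASO, of the 4 genes in each line with 1 SE, over the band that holds the middle 80% of all tested features. DUSP1 in MDA-MB-231 is the largest at 1.15, and ETV1 lies near 0 in SKBR3 and MDA-MB-231 and at 0.57 in MDA-MB-468.

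The 4 genes also shared an order among the replicate arrays within a group, a pattern noticed after the values were seen. All 4 were highest in anti-LINC01269 replicate 1 of SKBR3, in anti-AL078604.2 replicate 3 of MDA-MB-231 and in anti-AL078604.2 replicate 1 of MDA-MB-468. Among all tested features, 38.2%, 35% and 40.3% had those arrays as the highest of their group, and 5.69% had all of them. The array lowest in its group for all 4 genes was anti-LINC01269 replicate 2 in SKBR3 and anti-AL078604.2 replicate 1 in MDA-MB-231. In MDA-MB-468, DUSP1, SPRY4 and ETV1 were lowest in replicate 3, and ETV5 in replicate 2. What differs between these replicates was not tested.

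Values were also compared between genes over the 18 arrays after each line was centred on its mean, as a description, since the points share arrays and the ASO difference that chose the genes. DUSP1 and SPRY4 varied most closely, with a Pearson correlation of 0.874, and SPRY4 ranked 41 among 12003 named features in likeness to DUSP1. The other pairs ran from 0.367 for ETV1 with ETV5 to 0.638 for SPRY4 with ETV1. Centred on each group of 3, which removes the ASO difference, the correlation was 0.705 for DUSP1 with SPRY4 and 0.738 for DUSP1 with ETV1. The other pairs then ran from 0.379 for ETV1 with ETV5 to 0.572 for SPRY4 with ETV5, and these values were not ranked among other features. The named genes most like DUSP1 by the first measure were EDN1, the endothelin precursor (0.98), and TFPI2, a secreted protease inhibitor (0.967). They were followed by ODC1, the first enzyme of polyamine synthesis (0.951), DKK1, a secreted Wnt inhibitor (0.942), and CAVIN1, a coat protein of caveolae (0.942). ODC1 (0.936) and DKK1 (0.93) were also among the 5 most like SPRY4, with TSPYL2 (0.951), the fatty acid elongase gene ELOVL4 (0.936) and the deacetylase gene SIRT1 (0.928). ETV1 had other companions. They were POPDC1, a membrane protein that binds cyclic AMP (0.905), the cholesterol synthesis gene HMGCS1 (0.878), NAE1, part of the NEDD8-activating enzyme (0.862), DEPDC7 (0.847) and METTL8 (0.846). For ETV5 the values were lower, from 0.838 for ZNF878 to 0.818 for KANSL2, with HAPLN3, THUMPD1 and CHAD between them.

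Differences between lines in the control ASO arrays were not part of the choice of genes and were tested. The same control arrays are, however, what the differences that chose the genes were taken against, so these tests are not fully independent of that choice. After quantile normalization SPRY4 was lowest in MDA-MB-468. Its control arrays read 6.34, 6.46 and 6.25 in SKBR3, 6.21, 6.35 and 6.14 in MDA-MB-231, and 5.55, 5.25 and 5.25 in MDA-MB-468. The means were 6.35 ± 0.104 in SKBR3, 6.23 ± 0.103 in MDA-MB-231 and 5.35 ± 0.174 in MDA-MB-468 (SD, n = 3 each), and no MDA-MB-468 array reached those of the other lines. The difference was 1.003 ± 0.167 log2, or 2.00-fold, for SKBR3 minus MDA-MB-468 (limma adjusted p = 0.000237). It was 0.89 ± 0.167, or 1.85-fold, for MDA-MB-231 minus MDA-MB-468 (limma adjusted p = 0.00106). Both calls held without any 1 control array of their lines and under the other scalings, where SKBR3 minus MDA-MB-468 was 0.44 on the deposited values and 1.08 after median centring. SKBR3 and MDA-MB-231 did not differ beyond their spread, at 0.12 (95% confidence interval -0.24 to 0.47, limma adjusted p = 0.629), and on the deposited values that difference was -0.62. Over all features the percentage called was 31.5% for SKBR3 against MDA-MB-231, 35.5% for SKBR3 against MDA-MB-468 and 26.1% for MDA-MB-231 against MDA-MB-468, so a call between lines was common. The share of features whose arrays did not overlap between lines was not counted.

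DUSP1 control arrays read 7.73, 7.43 and 7.69 in SKBR3, 7.57, 7.53 and 7.51 in MDA-MB-231, and 6.97, 7.19 and 7.01 in MDA-MB-468 on the normalized scale. The MDA-MB-468 arrays were the lowest of the 9. It was higher in SKBR3 than in MDA-MB-468 by 0.56 ± 0.187 (95% confidence interval 0.16 to 0.96, limma adjusted p = 0.0282). That call was lost without SKBR3 control replicate 1 (limma adjusted p = 0.0898) or 3 (0.079), or MDA-MB-468 control replicate 1 (0.0836) or 3 (0.0772), and on the deposited values the difference was -0.0128. MDA-MB-231 minus MDA-MB-468 was 0.48 (limma adjusted p = 0.0704), and the neighbours SKBR3 and MDA-MB-231 differed by 0.08, with an interval of -0.31 to 0.48. On the deposited values that last difference was -0.67.

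ETV1 ran in another order. Its normalized control arrays read 6.42, 6.23 and 6.51 in SKBR3, 6.92, 6.72 and 6.81 in MDA-MB-231, and 6.65, 6.56 and 6.57 in MDA-MB-468. It was lower in SKBR3 than in MDA-MB-231, at -0.43 ± 0.124 (95% confidence interval -0.69 to -0.17, limma adjusted p = 0.015). In that comparison 31.5% of all features passed. The arrays did not overlap, a separation whose share over all features was not counted, and the sign was the same under the other scalings. The call was lost without SKBR3 control replicate 2 (limma adjusted p = 0.0712) or MDA-MB-231 control replicate 1 (0.0587). The MDA-MB-468 arrays lay between those of the other lines without overlap, but the differences did not pass, at -0.21 for SKBR3 minus MDA-MB-468 (limma adjusted p = 0.212) and 0.22 for MDA-MB-231 minus MDA-MB-468 (0.205). On the deposited values both passed, at -0.76 (limma adjusted p = 3.2e-05) and 0.39 (0.0184). ETV5 means were 5.33 ± 0.286 in SKBR3, 5.44 ± 0.0837 in MDA-MB-231 and 5.41 ± 0.0555 in MDA-MB-468 (SD, n = 3 each), with overlapping arrays and limma adjusted p-values of 0.658 to 0.934 for the 3 differences. On the deposited values ETV5 was lower in SKBR3, at -0.91 for SKBR3 minus MDA-MB-231 (limma adjusted p = 0.000106) and -0.70 for SKBR3 minus MDA-MB-468 (0.00145). Line and any set in which its arrays were run cannot be told apart, and each line's arrays carry a scale of their own.

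**Figure D4:**
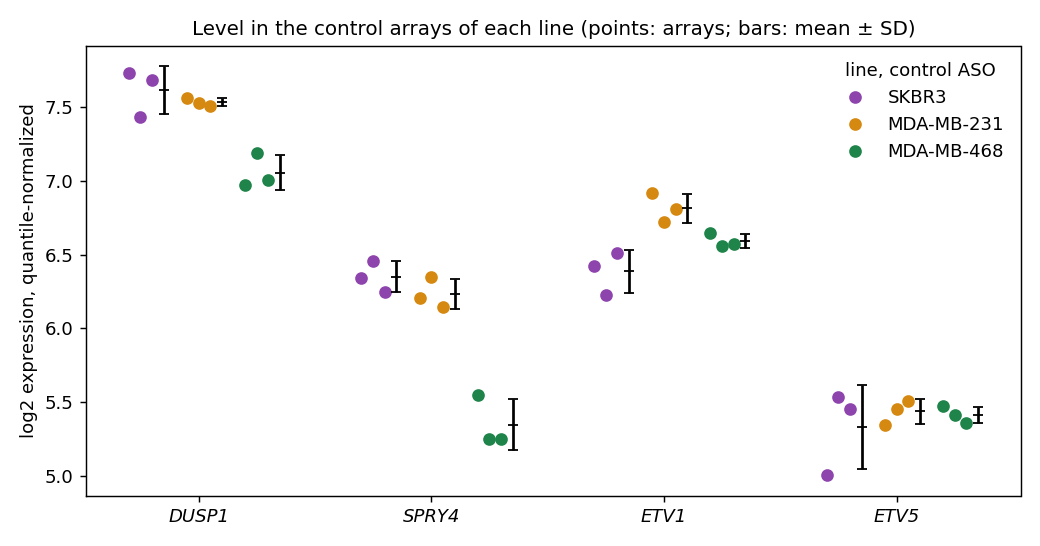
Quantile-normalized log2 expression of the 4 genes in the 3 control ASO arrays of each line, with the mean ± SD. SPRY4 averages 6.35 in SKBR3 and 6.23 in MDA-MB-231, above 5.35 in MDA-MB-468, and the lines overlap for ETV5.

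Other genes were taken from 10 lists of 117 distinct genes, 77 of them tested, written with earlier results of these arrays known. The lists cover the pathway, families of the 4 genes, stress genes and glucocorticoid receptor targets, so the pooled counts mix different sets. With limma adjusted p under 0.05 over all 29855 features, 0 of 77 passed in SKBR3, 1 in MDA-MB-231 and 0 in MDA-MB-468. At an unadjusted p under 0.05 there were 8 in SKBR3, 16 in MDA-MB-231 and 10 in MDA-MB-468, or 10.4%, 20.8% and 13%, against 9.16%, 9.35% and 10.5% of all features in the same order. Differences above 0 were found for 47 of the 77 genes in SKBR3, 46 in MDA-MB-231 and 41 in MDA-MB-468, with medians of 0.0352, 0.0522 and 0.0153. Over all features 54%, 53% and 49.1% were above 0. None of the 77 passed the test of the difference between MDA-MB-231 and MDA-MB-468 responses, with 0% of all features passing, and 4 had an unadjusted p under 0.05 there, as did 4.16% of all features.

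The gene that passed was ETV3, an ETS factor that represses transcription. In MDA-MB-231 it read 8.60, 8.52 and 8.50 with the anti-AL078604.2 ASO, against 8.07, 8.18 and 8.16 with the control ASO. It rose by 0.40 ± 0.0753 log2 (limma adjusted p = 0.0422), with no overlap between groups, as for 9.28% of tested features in that direction. The call was lost without any 1 array of this comparison other than anti-AL078604.2 replicate 1, and the limma adjusted p ran from 0.035 to 0.215 over the 6 omissions. ETV3 differed by 0.08 in SKBR3 (limma adjusted p = 0.784) and by 0.15 in MDA-MB-468 (0.528).

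Of the other ETS factors, 16 of 23 were tested, and 8 had a difference above 0 in SKBR3, 11 in MDA-MB-231 and 9 in MDA-MB-468. ETV4, the third PEA3-type gene, did not pass in any line, with 0.36 in SKBR3 (limma adjusted p = 0.589), 0.51 in MDA-MB-231 (0.328) and 0.39 in MDA-MB-468 (0.48). Its arrays were separated in SKBR3 (7.28% of tested features were, in that direction), at 6.40, 6.02 and 5.998 with the anti-LINC01269 ASO against 5.70, 5.71 and 5.94 with the control ASO. They were separated in MDA-MB-231 too (9.28% of features), at 7.17, 7.47 and 7.64 with the anti-AL078604.2 ASO against 6.86, 7.04 and 6.83 with the control ASO. In MDA-MB-468 they overlapped, at 7.48, 6.93 and 6.54 with the anti-AL078604.2 ASO against 6.61, 6.70 and 6.47 with the control ASO. ETV4 was highest in the same anti-lncRNA replicate of each line as the 4 genes, as 5.69% of tested features were. ELF5, an ETS factor of luminal progenitors, had values of -0.35, -0.40 and -0.32 in SKBR3, MDA-MB-231 and MDA-MB-468, none passing.

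Among the 12 other dual-specificity phosphatases, all tested, 0 passed in either direction in any line. DUSP5, which acts on nuclear ERK, differed by 0.46 in MDA-MB-231 (limma adjusted p = 0.0739), and DUSP14 by 0.53 (0.0816). DUSP22 went the other way in SKBR3, at -0.35 (limma adjusted p = 0.39), with 6.97, 7.56 and 7.46 in anti-LINC01269 arrays against 7.67, 7.73 and 7.63 in control arrays. DUSP6, the cytoplasmic ERK phosphatase, had 0.26 in SKBR3, 0.25 in MDA-MB-231 and 0.45 in MDA-MB-468 (limma adjusted p of 0.385 to 0.748). The MDA-MB-468 value rested on 7.60, 6.92 and 6.63 with the anti-AL078604.2 ASO, of which the first stood apart, against 6.62, 6.58 and 6.60 with the control ASO. Of 6 other Sprouty and Spred genes only SPRY2 and SPRY3 were tested, and 0 passed. SPRY2 had 0.31 in SKBR3, 0.44 in MDA-MB-231 and 0.21 in MDA-MB-468, and SPRY3 had -0.22, -0.35 and -0.20 in the same lines.

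The RAS-ERK core had 13 of 20 genes tested, 0 passing, with medians of 0.0023 in SKBR3, -0.06 in MDA-MB-231 and -0.07 in MDA-MB-468 and no value outside -0.23 to 0.18. Capicua and the genes of PEA3 protein turnover had 5 of 7 tested, 0 passing. CIC, which encodes Capicua, had 0.04 in SKBR3, -0.10 in MDA-MB-231 and -0.23 in MDA-MB-468 (limma adjusted p = 0.342 for the last). Of 9 ligands of the EGF receptor family 7 were tested and 0 passed, with 0.43 for HBEGF and -0.32 for EGF in MDA-MB-231. The p38 and JNK kinases, substrates of DUSP1, and their activators had 7 of 11 tested and 0 passing. Their lowest value was -0.48, for the p38 activator MAP2K6 in SKBR3.

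Other ERK output genes had 9 of 13 tested and 0 passing, with 8 above 0 in SKBR3, 8 in MDA-MB-231 and 7 in MDA-MB-468, and medians of 0.14, 0.23 and 0.08. FOSL1, a subunit of AP-1, had 0.71 in SKBR3 (limma adjusted p = 0.437), and the growth regulator MYC 0.44 (0.45). Both were high in anti-LINC01269 replicate 1: FOSL1 read 7.19, 5.89 and 6.08 with the anti-LINC01269 ASO against 5.87, 5.49 and 5.67 with the control ASO, and MYC 7.43, 6.74 and 6.83 against 6.61, 6.52 and 6.55. The receptor kinase gene EPHA2 had 0.45 in MDA-MB-231 (limma adjusted p = 0.305). ERRFI1, an inhibitor of EGF receptor signalling, had 0.31 in MDA-MB-468 (limma adjusted p = 0.194). Stress and mRNA decay genes had 3 of 10 tested and 0 passing, with ATF3 at 0.57 in MDA-MB-231 (limma adjusted p = 0.0966), KLF4 at 0.42 and KLF6 at 0.34. Targets of the glucocorticoid receptor, a known inducer of DUSP1, had 4 of 7 tested and 0 passing. The 2 with the smallest p ran in opposite directions in the MDA-MB lines: FKBP5, a chaperone of the receptor, had 0.09 in SKBR3, -0.37 in MDA-MB-231 and -0.31 in MDA-MB-468, and ERRFI1, which is also in this list, had 0.12, 0.20 and 0.31.

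**Figure D5:**
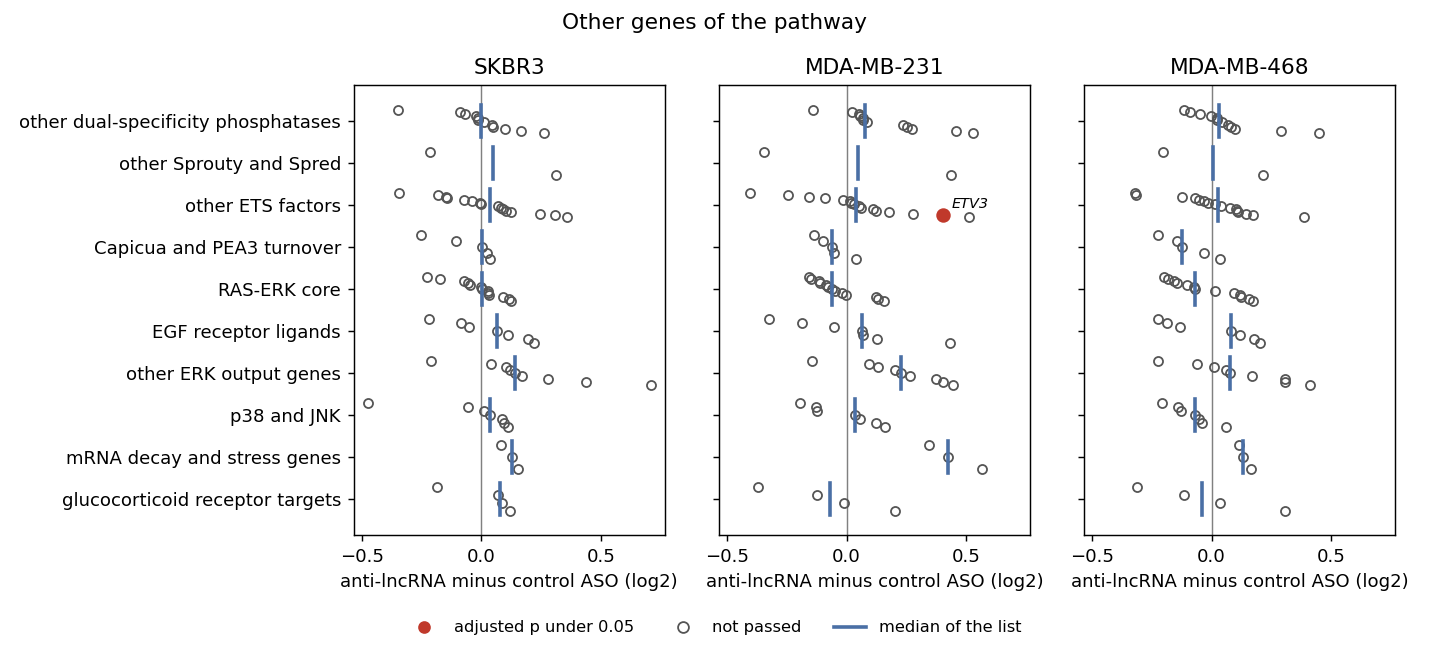
Difference in log2 expression, anti-lncRNA ASO minus control ASO, of each tested gene of the 10 lists in the 3 lines, with the median of each list. ETV3 in MDA-MB-231 is the 1 listed gene that passed, and the RAS-ERK core lies between -0.23 and 0.18.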

How the data were processed

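RNA was measured on 18 arrays, 3 per group. Per the submitters' processing notes, the authors worked up the scans with Transcriptome Analysis Console. Which version, normalization and genome build they used is not given in the sources used here. Values they deposited were read as log2 expression from their range, since no label or header names a scale. GEO's platform annotation named 16098 features (14884 distinct symbols). Per gene, the feature with the highest mean over 18 arrays was used. Control probes were not marked and were not removed.

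Features were kept for testing if their mean lay over the overall median in 1 or more of the 6 groups (29855 features). With limma 3.58.1 in R 4.3.3, 1 mean per group was fitted over the 18 arrays, with an intensity trend (12 residual and 4.33 prior degrees of freedom). Tests were two-sided, with p-values Benjamini-Hochberg adjusted over all tested features, with a threshold of 0.05. Lines were compared in the same model after quantile normalization. The procedure was tested on simulated data.

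The members and lists were chosen with earlier results of these data known. For each list, up to 4 genes with the smallest p over the 3 comparisons and any that passed were named, together with the 5 features most like each member and its nearest tested neighbours. P-values measure the spread between these arrays, which may be technical, and the number of arrays limits the precision.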

Additional observations from a re-analysis of the deposited data

How the results depend on the processing

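The differences of DUSP1, SPRY4, ETV1 and ETV5 between anti-lncRNA and control ASO moved by less than 1 pooled SD of the replicates of both groups under quantile normalization, under median centring and without any 1 array, although values near 0 changed sign without 1 array (ETV1 in SKBR3 from -0.08 to 0.06, and ETV1 and ETV5 in MDA-MB-231). Leaving out each array in turn gave 0.95 to 1.34 for DUSP1 in MDA-MB-231, 0.44 to 0.77 in MDA-MB-468 and 0.19 to 0.46 in SKBR3, and 0.52 to 0.64 for ETV1 in MDA-MB-468. Each gene has 1 feature, so averaging features was not run. Counts of calls over all features moved more, and the cause was not tested. For SKBR3 the count was 0, and 1 with no filter, and leaving out 1 array gave 0 to 232 (232 without anti-LINC01269 replicate 2). For MDA-MB-231 it was 51, and 28 with no filter, 26 with no trend and 3 with only this line's arrays, and leaving out 1 array gave 0 to 535 (535 without anti-AL078604.2 replicate 1). For MDA-MB-468 it was 2, and 0 with only this line's arrays, and leaving out 1 array gave 0 to 12 (12 without anti-AL078604.2 replicate 3). ETV3 in MDA-MB-231 was no longer called with quantile normalization (limma adjusted p = 0.0541), no filter (0.0701), no trend (0.0719) or this line's arrays alone (0.132). It was called with median centring (0.0378) and with the stricter filter (0.0396). With the replicate number as a block the counts were 0 in all 3 lines and 0 for the difference between lines, against 51 and 2 without it in MDA-MB-231 and MDA-MB-468, and the limma adjusted p of ETV3 was 0.155. Deviations from the group means correlated at -0.124 to 0.101 between same-numbered arrays of a line, with 1 of 9 over 0.1. Between differently numbered arrays of a line they correlated at -0.146 to 0.12. With 3 arrays per group, these values cannot show whether the numbers mark paired samples. Between lines, the deposited values gave 26840 calls for SKBR3 minus MDA-MB-231 and 24051 for SKBR3 minus MDA-MB-468, and turned the sign of DUSP1 (-0.67) and SPRY4 (-0.62) in SKBR3 minus MDA-MB-231 and of DUSP1 in SKBR3 minus MDA-MB-468 (-0.0128). Of the calls for MDA-MB-231 minus MDA-MB-468, 9309 of 10880 were higher in MDA-MB-231 on the deposited values, against 3960 of 7786 after quantile normalization. Leaving out 1 control array gave 7080 to 7904, 8255 to 9310 and 5633 to 6410 calls in the 3 comparisons of lines.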

Other observations

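The nearest tested named genes on either side of the 4 genes, by start position in the RefSeq table, did not pass limma's test in any line. Beside DUSP1, the ubiquitin ligase gene NEURL1B differed by 0.17 in SKBR3, 0.07 in MDA-MB-231 and -0.08 in MDA-MB-468, and the secretory pathway gene ERGIC1 by -0.01, -0.20 and -0.12. Beside SPRY4, NDFIP1 had 0.13, -0.07 and -0.16, and ARHGAP26, which encodes a GTPase-activating protein, -0.09, -0.34 and -0.38, all in the order SKBR3, MDA-MB-231 and MDA-MB-468. Both neighbours of SPRY4 were below 0 in the MDA-MB lines, where 53% (MDA-MB-231) and 49.1% (MDA-MB-468) of all features were above 0. The NDFIP1 value in MDA-MB-231 was smaller than its SE of 0.0695. NDFIP1 starts 201651 bases and ARHGAP26 459947 bases from the listed start of SPRY4, and a shared cause in the region was not tested. The neighbours of ETV1 lie farther off, with listed starts 1320509 bases (SCIN) and 2570252 bases (SOSTDC1) away. The actin-severing gene SCIN had 0.63 in MDA-MB-231 (limma adjusted p = 0.147), the smallest adjusted p of the neighbours, and SOSTDC1, a secreted antagonist of BMP and Wnt signals, had -0.38 in SKBR3. Beside ETV5, the splicing gene TRA2B stayed within 0.09 of 0 and TBCCD1 had 0.11, -0.02 and -0.03.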
